A study of Mus musculus with 4 samples.

Results

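Replacement and linker histone variants are histones made outside the S-phase supply of new chromatin, and 10 genes that encode them were described in *Terc*-/- mouse embryonic stem cells at a pre-ALT and a post-ALT time point. The genes were taken by exact symbol from the RNA-seq gene tables, and they are 10 of the 53379 genes listed there. They comprise the linker histones *H1f0* and *H1fx*, the H2A variants *H2afx*, *H2afz*, *H2afv*, *H2afy* and *H2afy2*, and the H3 variants *H3f3a*, *H3f3b* and *Cenpa*. All 10 passed the expression filter, so that each was among the 19148 genes tested.

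Most nucleosomes are built from histones whose genes are switched on in S phase and lack introns, and replacement variants are expressed through the cell cycle and exchanged into chromatin away from the replication fork. H3.3 is deposited at active genes by HIRA and at telomeres and pericentric heterochromatin by ATRX and DAXX, a pair of factors that is often lost in tumours that use ALT, the telomerase-independent upkeep of telomeres. CENP-A replaces H3 in the nucleosomes of centromeres, H2A.Z marks promoters, H2A.X is phosphorylated around DNA breaks, macroH2A is associated with silenced chromatin, and linker H1 binds the DNA between nucleosomes.

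Cells of the line DKO741 were compared at population doublings 100 (PD100, pre-ALT) and 800 (PD800, post-ALT), with 2 libraries each; these numbers are doublings in the paper, while the treatment label speaks of passages. DKO741 is a single line made from E14 embryonic stem cells by deleting both alleles of *Terc*, the RNA subunit of telomerase, so the PD100 cells carry the same deletion and no *Terc*+/+ library was compared here. The line was kept on embryonic fibroblast feeders, but feeder-free cells were used for RNA, and the groups differ in time in culture as well as in ALT, which cannot be told apart. No label says that the 2 libraries of a group came from separate cultures, although the paper calls them biological duplicates, so the spread between them may be partly technical.

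Expected counts, the read pairs that RSEM assigned to a gene, summed to between 32454121 and 38492149 per library, and 3 counts corresponded to between 0.0743 and 0.0934 CPM (counts after scaling for depth, including edgeR's TMM factors). *Terc* had 1 count in PD100 replicate 1 and 0 in the other 3 libraries. The correlation of log2 CPM across genes was 0.980 between the PD100 replicates, 0.988 between the PD800 replicates and 0.924 to 0.935 between groups. TPM values are also scaled for transcript length and were used to compare levels between genes.

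Members of 2 pairs encode the same or nearly the same protein from different bases, which is what allows their RNAs to be counted apart. *H3f3a* and *H3f3b* both encode H3.3, with 136 of 136 residues identical, but 95 of the 411 bases of their coding sequences differed and 83 of 137 codons were written differently. The first 60 coding bases of both are shown from the GENCODE M21 transcripts (GRCm38), with the 13 differing bases in capitals; they lie at chr1:180811867-180811926 and chr11:116023950-116024009, both on the minus strand.
H3f3a: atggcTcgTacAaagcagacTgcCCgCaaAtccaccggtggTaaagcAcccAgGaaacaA
H3f3b: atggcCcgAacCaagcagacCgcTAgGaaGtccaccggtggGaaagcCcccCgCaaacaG

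*H2afz* and *H2afv* encode the H2A.Z proteins, which differed at 3 of 128 residues, whereas 81 of 387 coding bases differed. Their first 60 coding bases, each spread over 2 exons within chr3:137864694-137865189 (plus strand) and chr11:6439397-6444339 (minus strand), also held 13 differing bases, again in capitals.
H2afz: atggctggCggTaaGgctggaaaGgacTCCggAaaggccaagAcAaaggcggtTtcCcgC
H2afv: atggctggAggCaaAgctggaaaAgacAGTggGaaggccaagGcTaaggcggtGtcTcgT

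The feature that sets H2A.X apart from other H2A proteins is its phosphorylated tail, serine-glutamine-glutamate-tyrosine. The last 42 coding bases of *H2afx*, at chr9:44335152-44335193 on the plus strand, are shown with the codons of that tail in capitals.
H2afx: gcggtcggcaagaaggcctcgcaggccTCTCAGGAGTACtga

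Higher RNA levels at PD800 were found for *H1f0*, *H2afy* and *H3f3b*, and none of the 10 genes was lower at PD800. With edgeR's quasi-likelihood test and Benjamini-Hochberg adjustment over all tested genes, these 3 passed at an adjusted p under 0.01, against 13.1% of all tested genes that were higher and 15.4% that were lower by the same rule. Only *H1f0* also changed by over 2-fold, a call made for 6.28% (higher) and 8.81% (lower) of the tested genes. The median log2 fold change (PD800 over PD100) was 0.37 for the 10 members and 0.01 for all tested genes. In 8 of the 10 genes both PD800 libraries lay above both PD100 libraries in CPM, and in *H2afv* and *H3f3a* the groups overlapped. Such a separation upwards was seen in 37.4% of all tested genes and downwards in 36.4%.

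The number that passed depended on the libraries and on the test. It was 5 with DESeq2, 6 without the expression filter and 0 when a fold over 2 was tested. Calls over 2-fold among all tested genes moved as well, from 1202 higher to 1070, 1639 and 386 in the same order. The fit without the filter tested more genes. Without PD100 replicate 1, 7 members were higher and 1, *H2afv*, was lower. Without PD100 replicate 2, 7 members were higher, and without PD800 replicate 1 or PD800 replicate 2 the number was 3. *H1f0*, *H2afy* and *H3f3b* were among the passing genes in every fit that left out 1 library. With 2 libraries against 2, an exact two-sided permutation test of a single gene has a smallest possible p of 0.333, and the adjusted p-values draw on the spread shared across genes in the edgeR fit.

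**Figure D1:**
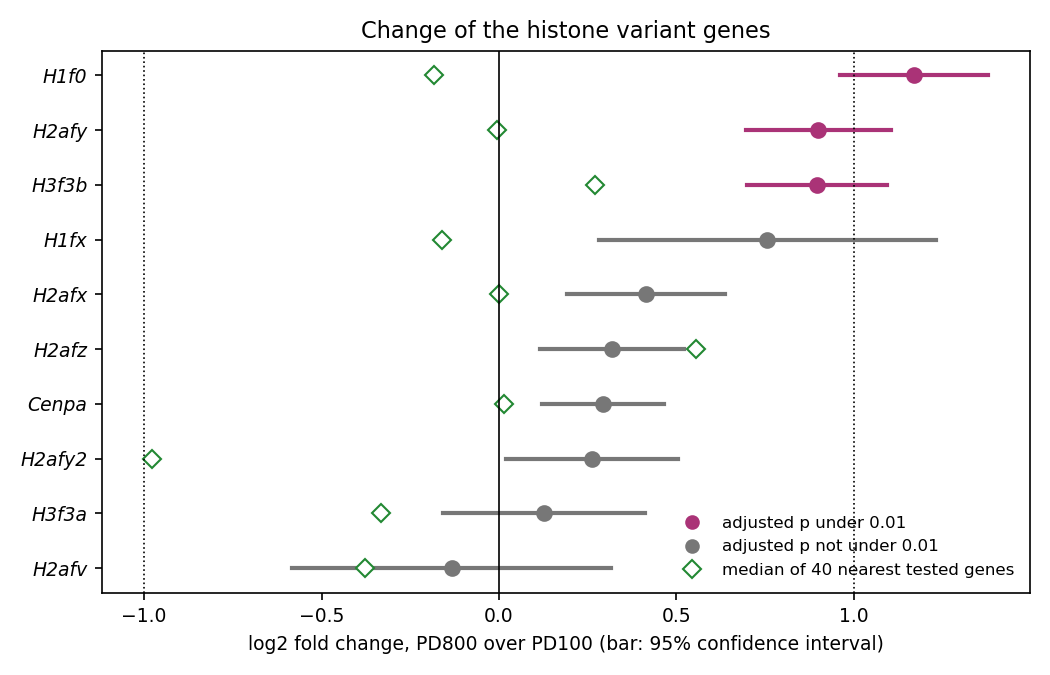
Log2 fold change of each gene, PD800 over PD100 (x axis; circles, with 95% confidence intervals as bars), with dotted lines at 2-fold and open diamonds at the median of the 40 nearest tested genes on the same chromosome. The 3 genes that passed (*H1f0*, *H2afy* and *H3f3b*) have intervals that begin at 0.96, 0.70 and 0.70, and the intervals of *H2afv* and *H3f3a* span 0.

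*H1f0* encodes H1.0, the linker histone that accumulates in differentiated and non-dividing cells and is expressed outside S phase (ENSMUSG00000096210.1, chromosome 15, 79028450 to 79030504, plus strand, 1 exon). Its level was 35.8 and 32.2 CPM at PD100 and 76.6 and 76.5 CPM at PD800. Both PD800 libraries were thus well above both PD100 libraries and almost equal to each other. The gene rose 2.25-fold, a log2 fold change of 1.17 ± 0.085 (SE; 95% interval 0.96 to 1.38, adjusted p = 0.000228). When the model tested whether the change exceeded 2-fold, the adjusted p was 0.109, and on the log2(TPM + 1) scale the change was 0.88, below the log2 value of 1 that marks 2-fold.

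*H1fx* encodes H1.10, a second replication-independent linker histone (ENSMUSG00000044927.6, chromosome 6, 87980421 to 87981637, minus strand, 1 exon). It was expressed at a low level, with counts of 141 and 165 at PD100 and of 241 and 241 at PD800. These corresponded to 3.49 and 4.94 CPM and to 6.70 and 7.50 CPM, so the groups did not overlap but the PD100 replicates lay far apart. The log2 fold change of 0.76 ± 0.19 (95% interval 0.28 to 1.23) had an adjusted p of 0.0221 and did not pass. The change was 0.52 without PD100 replicate 1 (adjusted p = 0.0126, still not passing) and 1.00 without PD100 replicate 2 (adjusted p = 0.000248), and it did not pass without either PD800 replicate (adjusted p = 0.0525 and 0.101).

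Among the H2A variants, *H2afy* was the gene that passed. It encodes macroH2A1, an H2A with a large globular domain beyond the histone fold (ENSMUSG00000015937.15, chromosome 13, 56073619 to 56136361, minus strand, up to 9 exons). Its level was 52.6 and 56.0 CPM at PD100 and 96.9 and 106 CPM at PD800. Every PD800 value exceeded every PD100 value, and the gene rose 1.87-fold (log2 fold change 0.90 ± 0.083, 95% interval 0.70 to 1.10, adjusted p = 0.000520). On the log2(TPM + 1) scale the change was 0.54 and the adjusted p from limma was 0.0146, so the call was lost there.

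*H2afy2*, the gene of macroH2A2 (ENSMUSG00000020086.6, chromosome 10, 61738665 to 61784147, minus strand, 9 exons), was the weaker expressed of the macroH2A genes. It had 8.79 and 9.02 CPM at PD100 and 10.3 and 11.1 CPM at PD800. The groups did not overlap, but the log2 fold change was only 0.26 ± 0.099 (95% interval 0.02 to 0.50, adjusted p = 0.0747). The TPM values, 3.40 and 3.13 at PD100 and 3.29 and 3.35 at PD800, did overlap.

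*H2afz*, the main gene of H2A.Z (ENSMUSG00000037894.13, chromosome 3, 137864487 to 137866922, plus strand, up to 5 exons), had the highest level per length of the 10 genes. It had 524 and 489 CPM at PD100 and 627 and 635 CPM at PD800. The CPM values did not overlap, and the log2 fold change was 0.32 ± 0.083 (95% interval 0.11 to 0.52, adjusted p = 0.0235), which did not pass. The adjusted p was 0.000681 or 0.00799 without PD100 replicate 1 or 2, and 0.240 or 0.265 without PD800 replicate 1 or 2. In TPM the groups did overlap, with 459 and 385 at PD100 and 455 and 436 at PD800.

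*H2afv*, the second H2A.Z gene (ENSMUSG00000041126.16, chromosome 11, 6427229 to 6444443, minus strand, up to 5 exons), had 36.2 and 53.1 CPM at PD100 and 38.2 and 43.2 CPM at PD800. Both PD800 values lay between the PD100 replicates. The log2 fold change was -0.13 ± 0.18 (95% interval -0.58 to 0.32, adjusted p = 0.590). It was -0.38 without PD100 replicate 1 (adjusted p = 0.00200) and 0.15 without PD100 replicate 2, so either PD100 library decided its direction.

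*H2afx*, the gene of H2A.X (ENSMUSG00000049932.3, chromosome 9, 44334694 to 44336077, plus strand, 1 exon), had 214 and 238 CPM at PD100 and 290 and 312 CPM at PD800. The groups did not overlap, in TPM as in CPM. The log2 fold change of 0.41 ± 0.091 (95% interval 0.19 to 0.64) had an adjusted p of 0.0127, just outside the threshold. Without PD100 replicate 1 or 2 the adjusted p was 0.00297 or 0.000290, and without PD800 replicate 1 or 2 it was 0.0813 or 0.15.

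*H3f3b*, 1 of the H3.3 genes (ENSMUSG00000016559.14, chromosome 11, 116021912 to 116027962, minus strand, up to 6 exons), had 446 and 463 CPM at PD100 and 843 and 849 CPM at PD800. The replicates of each group lay close together and the groups were far apart. The gene rose 1.86-fold (log2 fold change 0.90 ± 0.080, 95% interval 0.70 to 1.09, adjusted p = 0.000461). In TPM it went from 215 and 226 to 338 and 331, a log2 fold change of 0.60 on the log2(TPM + 1) scale.

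*H3f3a*, the other H3.3 gene (ENSMUSG00000060743.12, chromosome 1, 180800832 to 180813943, minus strand, up to 5 exons), had 296 and 239 CPM at PD100 and 298 and 287 CPM at PD800. PD100 replicate 2 was the low library, and the groups overlapped. The log2 fold change was 0.13 ± 0.12 (95% interval -0.16 to 0.41, adjusted p = 0.416). It was 0.29 without PD100 replicate 1 (adjusted p = 0.00505), -0.04 without PD100 replicate 2 and -0.16 on the log2(TPM + 1) scale, so its sign depended on the library left out and on the scale.

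*Cenpa*, the centromeric H3 (ENSMUSG00000029177.9, chromosome 5, 30666777 to 30674830, plus strand, up to 7 exons), had 60.1 and 60.4 CPM at PD100 and 73.2 and 74.5 CPM at PD800. The CPM values of the replicates were close and the groups did not overlap. The log2 fold change was 0.29 ± 0.070 (95% interval 0.12 to 0.47, adjusted p = 0.0174), which did not pass. The adjusted p was 0.00334 or 0.00505 without PD100 replicate 1 or 2, and 0.194 or 0.224 without PD800 replicate 1 or 2. In TPM, 44.2 and 38.0 at PD100 against 41.8 and 39.1 at PD800, the groups overlapped and the log2(TPM + 1) change was -0.02.

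For all 10 members the log2 fold change was lower on the log2(TPM + 1) scale than in the edgeR fit. Over all tested genes the median log2 fold change was -0.12 on the log2(TPM + 1) scale and -0.10 with library totals in place of TMM, against 0.01 in the edgeR fit. Genes of the mitochondrion and of small non-coding RNAs held 22.0% to 23.4% of all counts at PD100 and 27.7% to 28.3% at PD800, and their part in this shift was not tested. The median of the 10 members was 0.13 on the log2(TPM + 1) scale and 0.25 with library totals, against 0.37 in the edgeR fit. *H3f3b* and *Cenpa* lay above the median gene on both the edgeR and the log2(TPM + 1) scale, and *H3f3a* lay above it on the first and below it on the second.

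The variants differed over a wide range in level. Given as mean TPM ± SD (n = 2), *H2afz* led at PD100 with 422 ± 52.9, followed by *H3f3a* with 295 ± 52.2, *H3f3b* with 221 ± 7.74 and *H2afx* with 136 ± 0.587. *H2afv* (51.0 ± 11.2), *Cenpa* (41.1 ± 4.35) and *H2afy* (33.0 ± 1.94) formed a middle group, in which *H2afv* and *Cenpa* overlapped. *H1f0* had 11.9 ± 1.80, and *H2afy2* (3.27 ± 0.191) and *H1fx* (2.92 ± 0.474) overlapped at the low end.

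At PD800 the order changed at 3 places. *H2afz* still led with 445 ± 13.9 TPM, but *H3f3b* (334 ± 5.25) stood above *H3f3a* (262 ± 13.0), ahead of *H2afx* (154 ± 1.74). *H2afy* (48.4 ± 3.44) stood above *Cenpa* (40.4 ± 1.92) and *H2afv* (38.8 ± 2.57), whose libraries overlapped. *H1f0* had 22.5 ± 0.926, and *H1fx* (4.21 ± 0.170) stood above *H2afy2* (3.32 ± 0.0424).

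**Figure D2:**
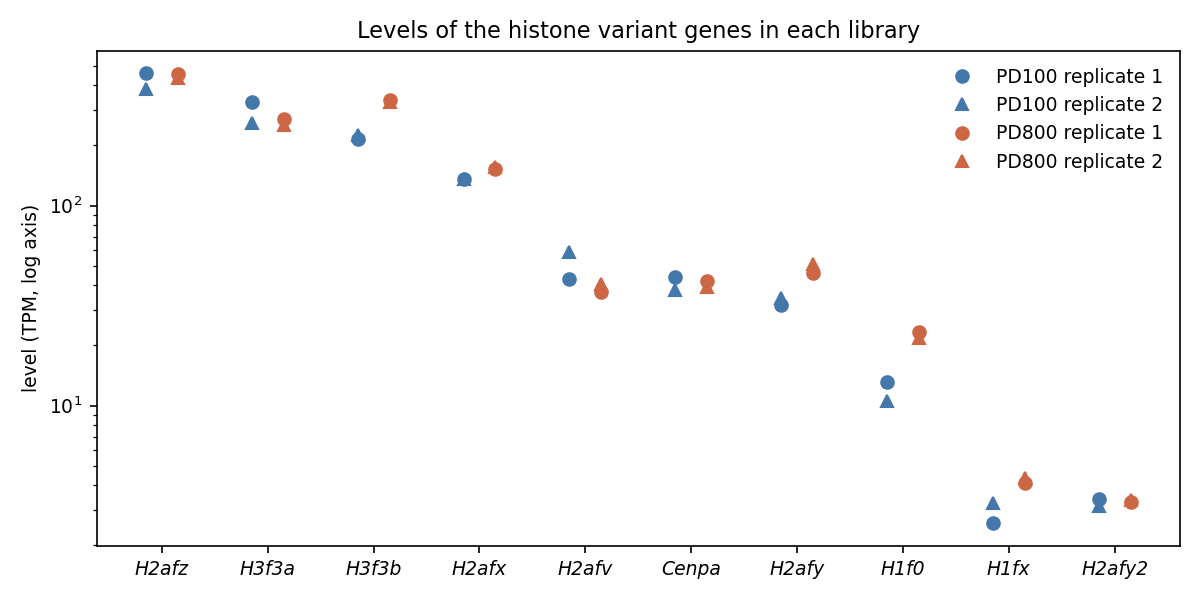
Level of each gene in TPM (y axis, log scale) in the 4 libraries, with PD100 in blue and PD800 in orange, and replicate 1 as circles and replicate 2 as triangles. The genes run from *H2afz*, between 385 and 459 TPM, to *H2afy2*, between 3.13 and 3.40 TPM, and *H3f3b*, *H2afx*, *H2afy*, *H1f0* and *H1fx* show both PD800 points above both PD100 points.

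The RNA for H3.3 came from a different mix of its genes at the 2 time points. *H3f3b* made up 39.4% and 46.7% of the summed TPM of *H3f3a* and *H3f3b* at PD100, against 55.5% and 56.7% at PD800. The sum itself was 547 and 484 TPM at PD100 and 609 and 584 TPM at PD800. The share of *H3f3b* was higher in both PD800 libraries. On counts, the log2 ratio of *H3f3b* to *H3f3a* was 0.76 higher at PD800, with an exact two-sided permutation p of 0.333, the smallest that 2 against 2 libraries allow.

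The other pairs were dominated by 1 gene at both time points. *H2afz* made up 91.4% and 86.7% of the H2A.Z pair at PD100 and 92.5% and 91.5% at PD800, with PD100 replicate 2 the low library. *H2afy* made up 90.3% and 91.7% of the macroH2A pair at PD100 and 93.3% and 93.8% at PD800, so both PD800 libraries were higher. For both pairs the exact two-sided permutation p of the log2 ratio of counts was also 0.333.

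**Figure D3:**
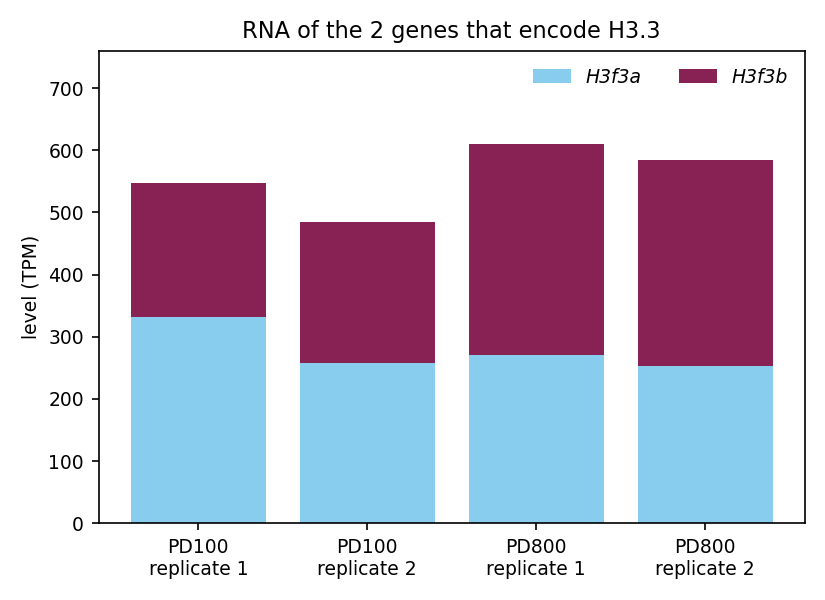
Level in TPM (y axis) of *H3f3a* (light blue) and *H3f3b* (dark red), stacked for each library (x axis). The *H3f3b* part grows from 215 and 226 TPM at PD100 to 338 and 331 TPM at PD800, while the *H3f3a* part lies between 253 and 332 TPM.

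The variants were also set against the other genes of the same family, most of them replication-dependent. The 2 linker variants made up 1.28% and 0.792% of the TPM of H1 genes at PD100, and 2.72% and 2.34% at PD800, where the other 5 genes were *Hist1h1a* to *Hist1h1e*, the somatic linker histones. The 3 H3 variants made up 15.1% and 14.5% of the H3 family at PD100 and 19.5% and 17.8% at PD800, beside 12 other genes. In both families the shares did not overlap between time points. The 5 H2A variants made up 14.7% and 18.0% at PD100 and 16.6% and 16.9% at PD800, beside 21 other genes, and overlapped. Those other H2A genes include *H2afj*, *Hist1h2aa* and *Hist3h2a*, which are described below as other variant genes.

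These shares moved with the variants and with the other genes together. The other H1 genes summed to 1216 and 1734 TPM at PD100 and to 975 and 1096 TPM at PD800, and none of the 5 passed the test in either direction (median log2 fold change -0.05). Messages of replication-dependent histones end in a stem-loop in place of a poly(A) tail, so their share depends on how RNA was selected, for which the labels name total RNA and the paper mRNA. Measured in counts, which do not correct for length, the shares were larger, with means of 1.96% and 4.32% for H1, 27.6% and 36.6% for H3 and 35.7% and 37.3% for H2A at PD100 and PD800.

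**Figure D4:**
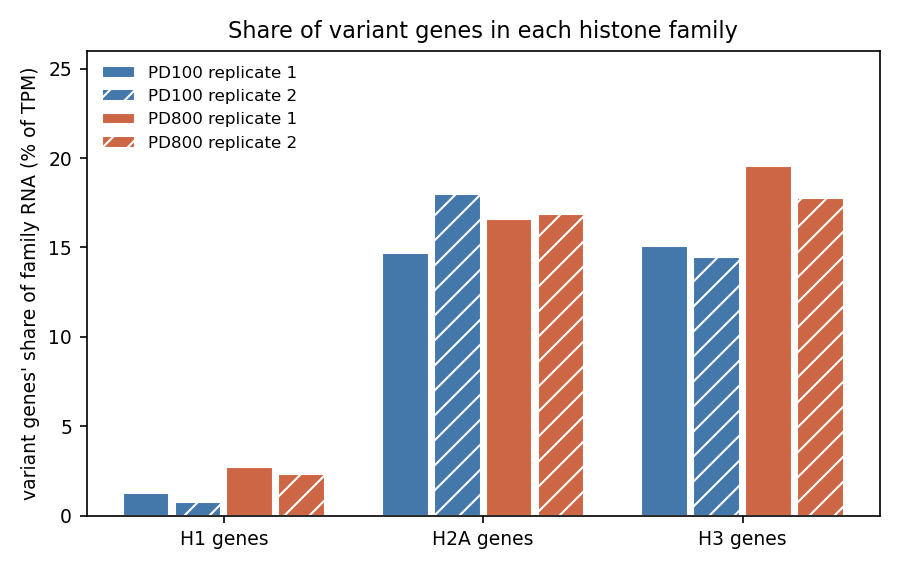
Share of the variant genes in the summed TPM of their histone family (y axis, per cent), for each library of PD100 (blue) and PD800 (orange), with replicate 2 hatched. The H1 and H3 bars are higher in both PD800 libraries, up to 2.72% and 19.5%, and the H2A bars overlap.

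Histone genes share sequence, and reads that align to several genes are divided between them by RSEM. A copy was counted as any annotated transcript at least 90% identical over at least 50% of a member's transcript or of its coding sequence alone. The best match of each copy found was to the coding sequence, so the rest of the transcript need not be shared. *H1f0*, *H1fx*, *H2afv*, *H2afy* and *Cenpa* had none. *H2afz* had 4 copies and *H3f3b* had 2, and in neither case did copies hold more than 0.18% of the joint count. *H3f3a* had 23 copies, nearly all processed pseudogenes, with 1.5% to 2.1% of the joint count.

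For *H2afx* and *H2afy2* the copies held more of the joint count. This share does not measure how many reads fitted several genes, which was not determined. The 18 copies of *H2afx* were mostly replication-dependent H2A genes, and they held 83.3% to 87.4% of the joint count. Summed with them, the log2 fold change of *H2afx* was 0.32 (adjusted p = 0.0614). The 1 copy of *H2afy2*, the pseudogene *H2afy3*, held 14.2% to 23.0% of the joint count, and the summed log2 fold change was 0.17.

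Genes on the opposite strand overlap 6 members, and the sources used here do not state that counting used strand. *Gm17275*, a long non-coding RNA gene opposite *H3f3a*, had counts of 594 and 460 at PD100 and of 508 and 351 at PD800, against 7982 to 11960 for *H3f3a*. *Gm5577*, opposite *H1fx*, had 50.2 and 45.5 at PD100 and 39.4 and 32.1 at PD800. The counts of *H1fx* itself were 141 to 241. *Aifm2*, a protein-coding gene that overlaps *H2afy2* by 596 bases, had 199 and 215 at PD100 and 195 and 168 at PD800, against 301 to 370 for *H2afy2*.

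The changes were set beside those of the 40 nearest tested genes on the same chromosome, since the DNA copy number of these cells was not analysed here. The log2 fold change of *H1f0* exceeded those of 39 of its 40 neighbours, that of *H1fx* of 40 and that of *H2afy* of 40, with neighbour medians of -0.18, -0.16 and -0.01 on the log2 scale. *H3f3b*, 5.94 Mb from the last annotated base of chromosome 11, exceeded 38 of 40 neighbours, of which 9 were higher at an adjusted p under 0.01 and 2 were lower, with a median of 0.27. *H2afz* lay below most of its neighbours, of which 17 were higher (median 0.55). *H2afy2* lay above most of its own, of which 19 were lower (median -0.98). Near *H1f0*, 1 neighbour was higher and 13 were lower. By the same rule 13.1% of all tested genes were higher and 15.4% lower. The paper reports copy-number changes at the long-arm subtelomeres of post-ALT cells. The part of the regions in these values was not tested.

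Promoters, from 250 bases before to 50 bases after the RefSeq start (GRCm38), were found for 9 of the 10 genes, all but *H2afx*. They held between 50.7% and 77.7% G and C and between 10 and 40 CG dinucleotides, against medians of 52.7% and 7 over 32851 promoters. Searched on both strands, CCAAT was present in 6 of the 9 against 37.4% of all promoters, and GGGCGG in 7 of the 9 against 35.7%. These letters are short, and a match is given as a description of the sequence and not as a binding site.

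The promoters of the 3 genes that passed differed in these letters. Those of *H1f0* and *H2afy* held neither CCAAT nor TATAAA. The 250 bases before the start of *H1f0*, the gene with the largest change among the 10, are shown with each CG in capitals; they lie at chr15:79027962-79028211 on the plus strand and hold 24 CG.
H1f0: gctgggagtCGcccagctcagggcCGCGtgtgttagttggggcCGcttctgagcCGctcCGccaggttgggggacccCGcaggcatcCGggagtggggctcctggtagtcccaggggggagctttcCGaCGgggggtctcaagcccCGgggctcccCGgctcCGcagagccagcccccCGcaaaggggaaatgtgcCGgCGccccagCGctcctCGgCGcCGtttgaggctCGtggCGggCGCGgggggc

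The promoter of *H3f3b* was of another kind. It held CCAAT at 4 places, beginning -214, -190, -167 and -97 bases from the start, TATAAA at -27 and ATGCAAAT, the octamer bound by POU proteins such as OCT4, at -74. TATAAA was in no other member and in 13.6% of all promoters, and ATGCAAAT, added to the search after this sequence was seen, in no other member and in 1.7% of all promoters. *H3f3a*, with the same protein, held CCAAT at 1 place and GGGCGG at 6, some of them overlapping. Stretches of 30 bases of *H3f3b* around 1 CCAAT, ATGCAAAT and TATAAA, in capitals, lie at chr11:116024677-116024706, chr11:116024560-116024589 and chr11:116024514-116024543 on the minus strand.
H3f3b CCAAT: caattgtaacagCCAATcagtggcctgaac
H3f3b ATGCAAAT: gtcgttggtgtATGCAAATcagggttctgt
H3f3b TATAAA: gtgcagcgtctcTATAAAtatggaggcgtc

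Of 9 H3.3 chaperones and loaders, 1 was higher and 1 lower and 7 did not pass, with a median log2 fold change of -0.11. These counts are close to the shares of all tested genes, 13.1% higher and 15.4% lower. *Atrx*, the remodeller that works with DAXX at telomeres, had 429 and 444 CPM at PD100 and 694 and 724 CPM at PD800, with no overlap, and rose by a log2 fold change of 0.70 (adjusted p = 0.00113). That call was lost without PD800 replicate 1 or 2 (adjusted p = 0.0207 and 0.0283), where the log2 fold change was 0.73 and 0.67. *Asf1a*, the chaperone that hands H3-H4 to HIRA, fell from 36.4 and 31.2 CPM to 18.6 and 18.1 CPM (log2 fold change -0.88, adjusted p = 0.00110). *Daxx* (-0.22, adjusted p = 0.0551) and *Hira* (-0.30, adjusted p = 0.0725) did not pass. Both passed without PD100 replicate 1 (adjusted p = 0.00496 and 0.000393, at -0.26 and -0.44) and neither did without any of the other 3 libraries.

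Of the 9 genes that load or hold CENP-A, 1 was higher and none lower (median 0.27), against 13.1% and 15.4% of all tested genes. *Cenpc1*, which binds CENP-A nucleosomes, rose by 0.42 on the log2 scale (adjusted p = 0.00569). *Hjurp*, the CENP-A chaperone, had 164 and 154 CPM at PD100 and 181 and 173 CPM at PD800 (log2 fold change 0.15, adjusted p = 0.160), and its sign turned on the log2(TPM + 1) scale (-0.10).

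Of 12 genes of the H2A.Z exchange machinery, 3 were higher and none lower (median 0.26), against 13.1% and 15.4% of all tested genes. *Yeats4*, a reader of acetylated histones in the SRCAP and TIP60 complexes, rose from 28.6 and 33.3 CPM to 105 and 113 CPM (log2 fold change 1.82, adjusted p = 0.000110). *Actr6*, an SRCAP subunit, rose by 1.11 (adjusted p = 0.000270), and *Vps72*, which holds H2A.Z in these complexes, by 0.51 (adjusted p = 0.00348). *H2afv* did not pass in the edgeR fit, nor did *H2afz*, which passed with DESeq2 (adjusted p = 0.00718) and without the expression filter (0.00466).

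Of 12 genes that phosphorylate, read or dephosphorylate H2A.X, 1 was higher and 2 lower (median 0.12), close to the 13.1% and 15.4% of all tested genes. *Baz1b*, a kinase of the terminal tyrosine, rose by a log2 fold change of 0.61 (adjusted p = 0.00142). *Trp53bp1*, the gene of the break-binding protein 53BP1, went from 120 and 135 CPM at PD100 to 68.9 and 72.9 CPM at PD800 (-0.85, adjusted p = 0.000788), and *Ppm1d*, a phosphatase of the H2A.X tail, changed by -0.50 (adjusted p = 0.00623).

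Among 5 genes listed with macroH2A, as partners or for a macrodomain, *Macrod2*, a macrodomain hydrolase, was higher (0.73, adjusted p = 0.00839). None was lower (median 0.00). Among 9 linker and general histone chaperones, *Nap1l4*, a nucleosome assembly protein, was higher (0.70, adjusted p = 0.00544) and none was lower (median -0.04). Of all tested genes, 13.1% were higher and 15.4% were lower.

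Of 12 other variant histone genes, 6 were expressed enough to be tested, and 1 was higher and 4 were lower (median -1.15), against 13.1% and 15.4% of all tested genes. *H2afj*, a replication-independent H2A, rose from 27.6 and 32.0 CPM to 61.3 and 63.1 CPM (log2 fold change 1.06, adjusted p = 0.000484), although it is among the copies of *H2afx*. *Hist1h1t*, the testis linker histone, fell from counts of 206 and 234 to 60 and 58 (-1.80, adjusted p = 0.00126). *Hist1h2ba*, the testis H2B, fell from counts of 136 and 58.7 to 12.6 and 3.45, the last close to the floor of 3 counts. *Hist1h2aa*, the testis H2A, was lower (-2.71, adjusted p = 0.000473), and so was *Hist3h2a* (-0.51, adjusted p = 0.00234).

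**Figure D5:**
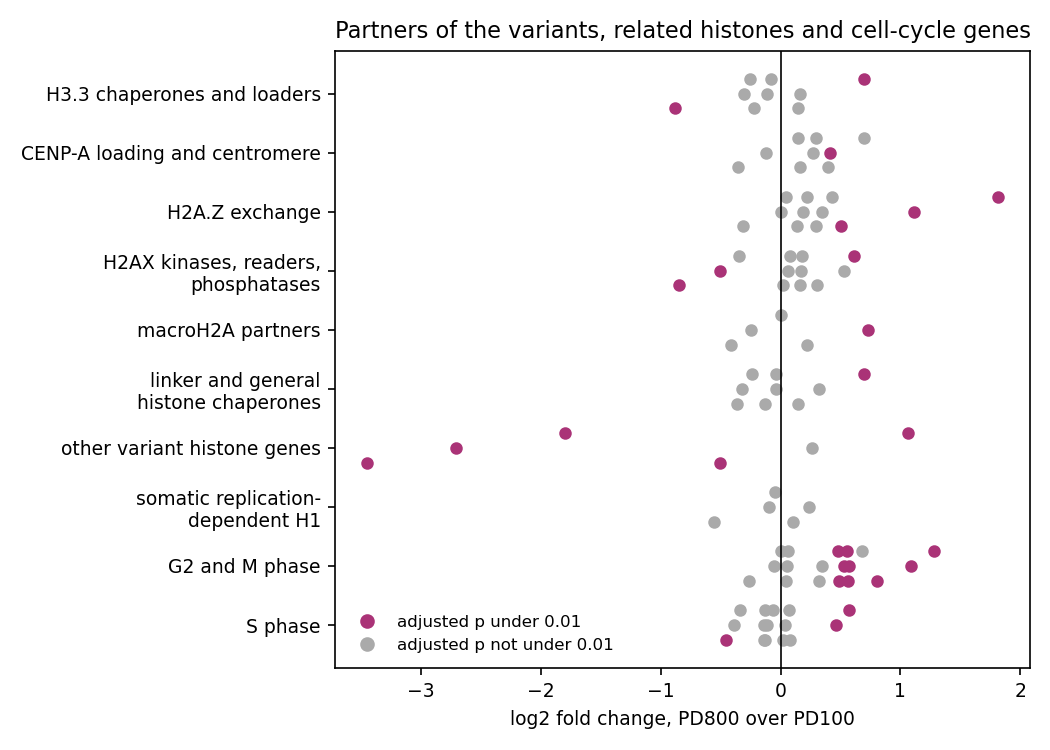
Log2 fold change (x axis, PD800 over PD100) of each tested gene of the lists named on the y axis, in red where the adjusted p was under 0.01 and in grey otherwise; height within a row has no meaning. *Yeats4* (1.82) lies farthest right, and *Hist1h2ba* (-3.45) farthest left.

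Of 18 G2 and M phase genes, 9 were higher and none lower (median 0.48), against 13.1% and 15.4% of all tested genes, among them the kinase *Aurka* (1.28), the proliferation marker *Mki67* (1.09), the spindle protein *Tpx2* (0.49) and the kinesin *Cenpe* (0.48). Of 15 S phase genes, 2 were higher, *Mcm7* (0.57) and *Tyms* (0.46), and 1 was lower, *Mcm5* (-0.45), with a median of -0.11, counts that are close to or below those shares. *Cenpa*, itself expressed late in the cycle, had a log2 fold change of 0.29 and did not pass. The G2 and M phase genes ran from -0.26 to 1.28, a range that held all 10 members. Their part in the change of the variants was not tested.

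Markers of other cells moved as well. In these bulk samples fewer cells of a type and less RNA per cell cannot be told apart. All 9 primitive endoderm markers were lower at PD800 (median log2 fold change -3.66), against 15.4% of all tested genes. Their summed levels were 241 and 262 TPM at PD100 and 14.7 and 15.0 TPM at PD800. *Lama1* (-2.76) and *Gata4* (-2.88) changed least, and *Sox17* (711 and 581 counts against 9 and 9) and *Foxa2* (230 and 147 counts against 1 and 1) most. Of 10 feeder fibroblast markers, 9 were tested, and 5 were lower and none higher (median -1.75). The shares of all tested genes were 15.4% lower and 13.1% higher. These markers summed to 13.8 and 13.7 TPM at PD100 and to 4.17 and 4.22 TPM at PD800. *Col1a1* (526 and 815 counts at PD100 against 70 and 81 at PD800, log2 fold change -3.07) and *Col3a1* (-2.52) fell most among the 5, and *Thy1* (-1.75) and *Prrx1* (-1.67) least. *Lum*, the marker that was not tested, had counts of 0 and 0 at PD100 and of 0 and 1 at PD800.

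Pluripotency genes, which mark the embryonic stem cells named by the labels, summed to 731 and 689 TPM at PD100 and 993 and 947 TPM at PD800. Of 10, 5 were higher, led by *Klf4* (2.84) and *Nanog* (2.32) and down to *Utf1* (0.37). *Dppa3* was lower (-2.17), and the median of the list was 0.50. Among all tested genes, 13.1% were higher and 15.4% lower. Of 9 markers of the 2-cell state, 6 were tested, 2 higher and 4 lower (median -4.12), against those same 13.1% and 15.4%. *Tcstv1* and *Tcstv3* were higher (5.08 and 4.53 counts at PD100 against 482 and 323, and 13.8 and 12.2 against 568 and 358). Among the 4 lower were *Zscan4c* (153 and 104 counts against 7.87 and 0) and *Zscan4f* (224 and 140 against 1.57 and 0). The part of these cell states in the change of *H1f0*, a gene that differentiated cells express more, was not tested.

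The genes most like *H1f0* across the 4 libraries were *Tigar*, *Ntn1* and *Nr3c1*. After centring on the mean of each gene, their log2 CPM differed from that of *H1f0* by a root-mean-square of 0.0135, 0.0172 and 0.0175, the smallest among the 10695 genes that averaged 5 CPM or more. With only 4 libraries such likeness is common, and 205 genes lay within 0.1.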

How the data were processed

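RNA of *Terc*-/- DKO741 embryonic stem cells was compared between PD100 and PD800 (2 libraries each, grouped by their labels, which give no batch). According to the submitters' processing notes, the authors used STAR 2.5.3a, RSEM 1.3.0 and DESeq2 1.18.1 on mm10. The annotation release is not given in the sources used here. The deposited values used were RSEM's expected count, which is not scaled for depth, and TPM, scaled for length and total. The deposited FPKM values were not used. Effective lengths that RSEM estimates from the isoform mix enter TPM and not the counts. Of 53379 identifiers, 53274 were found in GENCODE M21 (GRCm38).

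Expected counts were rounded and fitted in R 4.3.3 by means of edgeR 4.0.16. Low genes were removed by filterByExpr (minimum count 10), TMM factors were applied, and the quasi-likelihood test was adjusted by Benjamini-Hochberg over all 19148 tested genes. A gene passed at an adjusted p under 0.01 and was called where the fold also exceeded 2. The common dispersion was 0.0136. The steps were tested on simulated data. Total expected counts were between 32454121 and 38492149, and the floor of 3 counts covers counting error only. Copies were found with blastn 2.17.0, and family shares used TPM.

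The members, the lists of chaperones, cell-cycle genes and cell type markers, and the tests were chosen with earlier results of these data known. Named genes were all 10 members, the 2 highest and 2 lowest log2 fold changes among passing genes of each list, *Atrx*, *Daxx*, *Hira* and *Hjurp*, and the 3 genes most like the member with the largest change. Single overlapping genes and ATGCAAAT were named after their values were seen.

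Alternatives were DESeq2 1.42.0, its size factors, library totals without TMM, omitting the expression filter, requiring 10 counts in each library, a block for the replicate number, limma 3.58.1 on log2(TPM + 1) and log2(TPM + 0.1), a test for a fold over 2 (glmTreat), members summed with copies, and each library left out in turn. With 1 library left in a group, that library was assumed to vary like the others. Strand, DNA copy number, proteins and transcripts of single isoforms were not analysed here.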

Additional observations from a re-analysis of the deposited data

How the results depend on the processing

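Of the log2 fold changes of the 10 members under all alternatives, 111 kept their sign and their side of the threshold, 18 kept their sign and gained the threshold, 5 lost it and 6 changed sign. The changes of sign were *Cenpa* on both TPM scales (-0.0207 with a pseudocount of 1 and -0.0211 with 0.1), *H3f3a* on both (-0.159 and -0.159) and without PD100 replicate 2, and *H2afv* without PD100 replicate 2. With 1 library left out, *H3f3a* lay between -0.0405 and 0.293, and *H2afv* between -0.384 and 0.146. *Hjurp* also turned on both TPM scales (-0.101 and -0.103). The number of members higher at the adjusted p, 3, became 5 with DESeq2, 6 with no expression filter, 7 with the replicate block and 0 when a fold over 2 was tested, and lay between 3 and 7 with 1 library left out (7 without either PD100 replicate). The number lower, 0, lay between 0 and 1. The member called over 2-fold, *H1f0*, was not called when a fold over 2 was tested, nor with limma on log2(TPM + 1) or log2(TPM + 0.1), which made the number 0.

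Same-numbered libraries share only a number, since the labels give no common culture or day, and with 2 pairs the correlation of their deviations from the group means was 0.23 over 19148 genes. With the replicate block, *Cenpa* (adjusted p = 0.00814), *H1fx* (0.00104), *H2afx* (0.00102) and *H2afz* (0.00832) passed in addition.

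Over all tested genes, 1202 were called higher and 1686 lower, which became 386 and 685 when a fold over 2 was tested, 297 and 920 with limma on log2(TPM + 1), and 533 and 1779 on log2(TPM + 0.1). Of the genes in the lists, 27 were higher, against 7 when a fold over 2 was tested, 10 on log2(TPM + 1), 10 on log2(TPM + 0.1), and 12 to 44 with 1 library left out (12 without either PD800 replicate, 44 without PD100 replicate 2). Measured in counts in place of TPM, the mean family shares at PD100 and PD800 were 1.96% and 4.32% for H1, 35.7% and 37.3% for H2A, and 27.6% and 36.6% for H3. The causes were not tested. The members' counts ran from 141 for *H1fx* to 30311 for *H3f3b* in the lowest and highest library.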
